A study of Mus musculus with 12 samples.

Results

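The genes described here are 8 transcription factors that serve in fat, liver and muscle. Most act in sequence when a precursor cell becomes a fat cell, while *Cebpg* and *Ddit3* encode partners of such factors. The 8 are the C/EBP genes *Cebpa*, *Cebpb*, *Cebpd* and *Cebpg*, their relative *Ddit3* (CHOP), the nuclear receptor gene *Pparg*, and the zinc-finger and helix-loop-helix factors *Zfp423* and *Ebf1*. They were taken by symbol from the 22276 genes listed in the series, and all 8 were listed in every library. RNA-seq had been run on 12 libraries of male C57BL/6J mice, from the gastrocnemius (a calf muscle), from the liver and from gonadal white adipose tissue (WAT). All mice carried floxed alleles of *Nr3c1*, the glucocorticoid receptor gene, either without Cre (GRf/f) or with an *Acta1*-Cre transgene, which is active in myofibres and deletes exon 3, part of the DNA-binding domain, there (GRmKO). From 8 weeks of age both genotypes drank, for 4 weeks, 1% ethanol (vehicle) or 1% ethanol holding 100 µg/mL of CORT, that is corticosterone, the glucocorticoid hormone of rodents. The RNA of 3 mice was pooled for a library, and each combination of tissue, genotype and treatment had 1 library, so that there was no replicate and no p-value could be given. The receptor was left intact in liver, in fat and in the other cells of muscle of the GRmKO mice.

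C/EBP proteins carry a basic leucine zipper, bind DNA as dimers and pair with each other. C/EBP beta and delta are made early when fat cells form and in acute inflammation, and they switch on the genes for C/EBP alpha and PPAR gamma, which then maintain each other and the mature fat cell. C/EBP gamma, which lacks a strong activating domain, and CHOP pair with the other members and can block them. CHOP is induced when the endoplasmic reticulum or amino acid supply is under stress. In liver, C/EBP alpha and beta drive genes of glucose production and of the acute phase. EBF1 and ZFP423 act upstream of *Pparg* in fat cell precursors.

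Promoter sequence of *Cebpb* and *Ddit3*, the members with the largest fall and the largest rise, is shown beside that of *Cebpa*, which changed little in liver and fat. The sequences are RefSeq's for GRCm38.p6, plus strand, 5′ to 3′, and end at the base before the first annotated start. They lie at chr2:167688665-167688914 for *Cebpb*, chr10:127290543-127290773 for *Ddit3* and chr7:35119043-35119292 for *Cebpa*. Capitals mark matches, on either strand, to any of the 7 motifs spelled out after them.
Cebpb: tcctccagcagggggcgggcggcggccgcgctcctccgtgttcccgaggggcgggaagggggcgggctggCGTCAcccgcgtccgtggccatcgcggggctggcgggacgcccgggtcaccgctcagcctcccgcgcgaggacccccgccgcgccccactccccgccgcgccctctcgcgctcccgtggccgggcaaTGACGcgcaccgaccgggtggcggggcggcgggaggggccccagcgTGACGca
Ddit3: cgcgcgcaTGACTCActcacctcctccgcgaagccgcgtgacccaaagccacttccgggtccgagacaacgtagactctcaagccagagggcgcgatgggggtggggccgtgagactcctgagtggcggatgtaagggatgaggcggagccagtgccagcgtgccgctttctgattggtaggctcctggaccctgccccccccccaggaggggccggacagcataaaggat
Cebpa: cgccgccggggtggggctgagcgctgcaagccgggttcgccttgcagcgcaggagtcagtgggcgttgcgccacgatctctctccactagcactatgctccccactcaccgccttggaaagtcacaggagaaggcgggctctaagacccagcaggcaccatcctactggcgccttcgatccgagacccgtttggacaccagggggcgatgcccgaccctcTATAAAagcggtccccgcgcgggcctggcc
The motifs were a TATA box (TATAAA), a short CRE-type site (TGACG), an AP-1 site (TGACTCA), a C/EBP site (TTGCNNAA), a C/EBP-ATF site (TGATGNAA), a FOXO site (TGTTTAC) and a glucocorticoid response element (GNACA, any 3 bases, then TGTNC). In the order given, they were held by 13.6%, 20.8%, 5.2%, 10.8%, 3.97%, 3.65% and 0.475% of the 32851 promoter windows of this kind, which run from 250 bases before to 50 after a start. *Cebpb* held 3 short CRE-type sites, whose first bases lie 180, 53 and 7 bases before the start, and a TATA box just after it. *Ddit3* held an AP-1 site 242 bases before the RefSeq start and *Cebpa* a TATA box 30 bases before its own. Over the 11 windows of the 7 members that had an entry (*Cebpd* had none), a C/EBP site was found for *Pparg* and *Zfp423*, and no window held the C/EBP-ATF, FOXO or glucocorticoid response element letters. A match describes these letters and is not a bound site.

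The libraries held 19394572 to 20940660 estimated counts, and levels are given as CPM, counts scaled to the same total in every library. Intervals in parentheses are 95% counting intervals, which cover neither the spread between mice nor errors in assigning reads, and a level under 3 counts (0.143 to 0.155 CPM) was taken as under the detection floor. A change was counted, and is called a rise or a fall, where it reached 2-fold, that is 1 on the log2 scale with 0.5 CPM added to each level, among genes above 0 in all 4 libraries of the tissue. Genes so tested numbered 13543 for gastrocnemius, 12485 for liver and 14218 for gonadal WAT, among them all 8 members in gastrocnemius and gonadal WAT and 6 in liver. *Nr3c1* in gastrocnemius was at 113 and 90.4 CPM in the GRf/f vehicle and CORT libraries, and at 46.4 and 35.5 CPM in the GRmKO ones. Myofibre markers (*Ckm*, *Acta1*, *Myh4*, *Myh1*, *Tnnt3*) summed to 68695 to 103593 CPM in gastrocnemius, hepatocyte markers to 76114 to 135848 CPM in liver and adipocyte markers to 20762 to 23251 CPM in gonadal WAT, as the labels state. In whole tissue, fewer cells of a type and less RNA per cell cannot be told apart.

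The leading factor was *Cebpb* in gastrocnemius and *Cebpa* in both liver and gonadal WAT. Per kilobase of transcript, the vehicle-treated GRf/f gastrocnemius held *Cebpb* first at 76.1 CPM, followed by *Cebpd* at 14.4, *Ddit3* at 10.2, *Cebpg* at 9.98, *Cebpa* at 5.22, *Ebf1* at 3.92, *Pparg* at 1.99 and *Zfp423* at 1.6. There the intervals of *Ddit3* and *Cebpg*, and of *Pparg* and *Zfp423*, overlapped. In liver *Cebpa* led at 149 CPM per kilobase with *Cebpb* at 111, and the remaining members were at 6.31 or below. In gonadal WAT *Cebpa* led at 423 CPM per kilobase, followed by *Pparg* at 76.5, *Cebpb* at 55.2 and *Ebf1* at 32.3, while *Cebpg* at 20.5 and *Cebpd* at 19.8 could not be told apart by their intervals. In CORT-treated GRf/f WAT, *Cebpd* stood last of the 8 at 5.45 CPM per kilobase, and *Ddit3* at 31.9 overlapped *Ebf1* at 32.7.

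**Figure D1:**
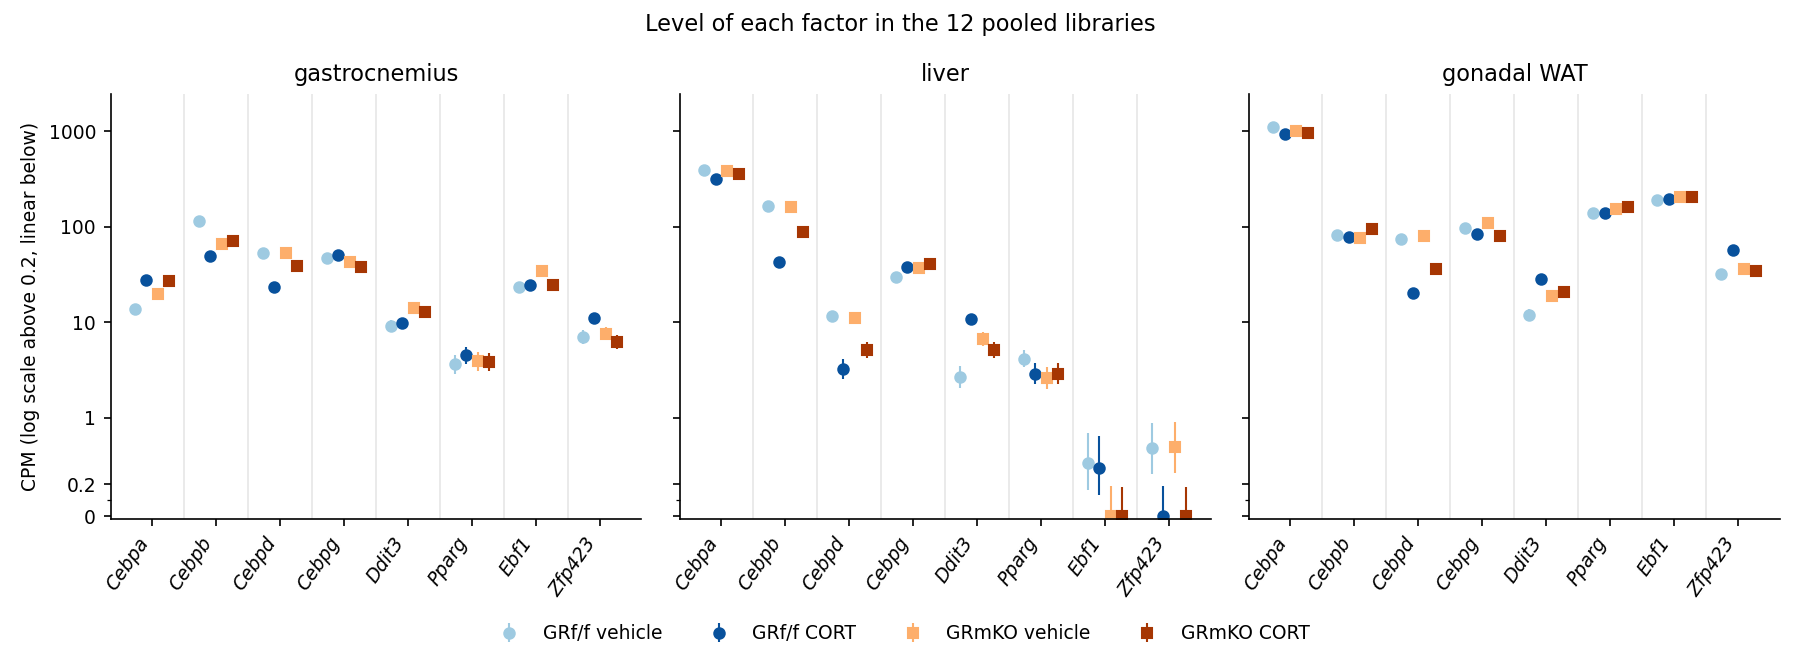
Level of each factor in CPM (vertical axis, logarithmic above 0.2 and linear below) in the 4 libraries of each tissue, 1 point per pooled library with its 95% counting interval. *Cebpa* lies between 946 and 1111 CPM in gonadal WAT and between 13.7 and 27.7 CPM in gastrocnemius, and the CORT libraries of *Cebpd* lie below both vehicle libraries in every tissue.

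CORT changed few of the 8 factors, and those it changed were the early C/EBP genes and *Ddit3*. In GRf/f gastrocnemius 2 of 8 members passed 2-fold, *Cebpb* and *Cebpd*, both lower, where 7.97% of all genes did. In GRf/f liver 3 of 6 passed, *Cebpb* and *Cebpd* lower and *Ddit3* higher, against 11.6% of all genes, and in GRf/f gonadal WAT 2 of 8, *Cebpd* lower and *Ddit3* higher, against 13.6%. In GRmKO mice, no member passed in gastrocnemius (background 6.53%), and *Cebpd* alone passed, lower, in liver (1 of 6, background 5.61%) and in gonadal WAT (1 of 8, background 9.1%). The median size of the members' change, whatever its direction, was 0.45 in GRf/f gastrocnemius, 1.07 in liver and 0.22 in gonadal WAT on the log2 scale, and that of all genes 0.30, 0.32 and 0.39. In GRmKO mice the corresponding medians were 0.23, 0.24 and 0.11 for the members and 0.23, 0.25 and 0.31 for all genes. Comparisons within a tissue share libraries and are not independent of each other.

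**Figure D2:**
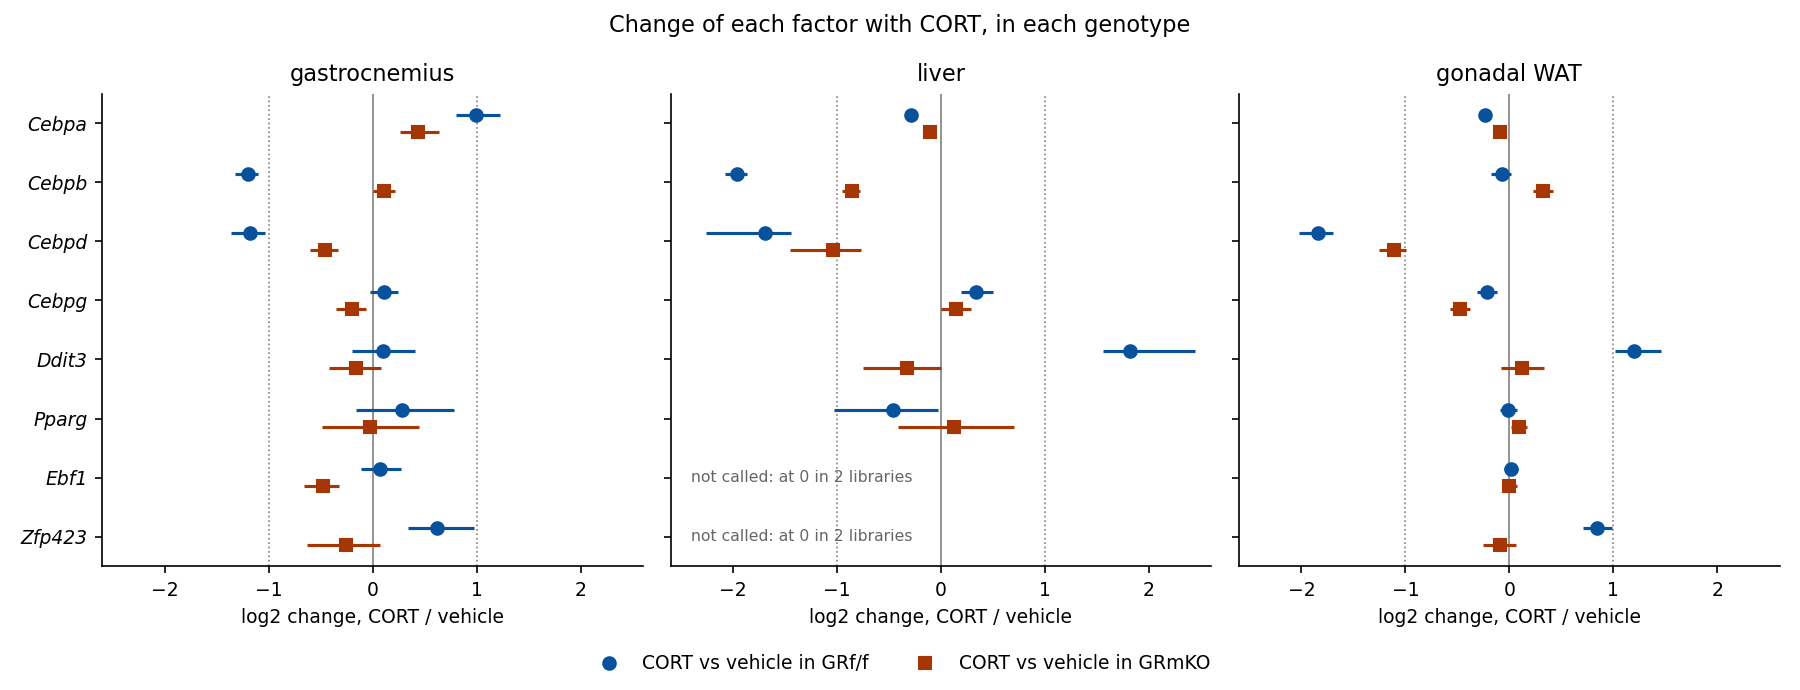
Log2 change with CORT (horizontal axis) of each factor in GRf/f (circles) and GRmKO mice (squares), with 95% counting intervals and dotted lines at 2-fold. *Cebpd* lies to the left in all 6 comparisons, from -0.46 to -1.84, and *Ddit3* lies past +1 in GRf/f liver and gonadal WAT alone.

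*Cebpd*, on chromosome 16 (GRCm38, 15887286 to 15891031, plus strand, 1 exon), encodes C/EBP delta, an early factor of fat cell formation and inflammation. In gastrocnemius it was at 53.8 CPM in the GRf/f vehicle library, 23.5 with CORT, 52.9 in the GRmKO vehicle library and 38.4 with CORT. In liver the corresponding levels were 11.6, 3.24, 11.1 and 5.14 CPM, and in gonadal WAT 74.3, 20.4, 79.4 and 36.5 CPM. In each tissue the vehicle libraries of the genotypes had nearly the same level, the GRf/f CORT library had the lowest, and the GRmKO CORT library lay between them. In GRf/f mice *Cebpd* fell in every tissue, with log2 changes of -1.18 in gastrocnemius (interval -1.36 to -1.03), -1.69 in liver (-2.26 to -1.44) and -1.84 in gonadal WAT (-2.02 to -1.70). In GRmKO mice it fell in liver (-1.04, -1.45 to -0.77) and in gonadal WAT (-1.11, -1.25 to -0.99), and in gastrocnemius the change was -0.46 (-0.60 to -0.33), short of 2-fold. The change in GRmKO minus that in GRf/f was 0.72 (0.51 to 0.93), 0.65 (0.13 to 1.16) and 0.73 (0.52 to 0.93) in the same order of tissues, on the log2 scale. The fall in GRmKO gonadal WAT was at the edge of 2-fold, and with TMM or median-of-ratios scaling, which moved the median gene of that comparison from -0.12 to 0.00 or 0.01, the change was -0.98. Summed stroma markers (8 of 8 above 0) moved with CORT in gastrocnemius in both genotypes, from 1251 to 536 CPM in GRf/f and from 1901 to 747 in GRmKO, but in gonadal WAT they were at 1550 and 1635 CPM in GRf/f and at 1708 and 1743 in GRmKO. Summed endothelium markers (3 of 3 above 0) moved in gonadal WAT from 514 to 199 and from 482 to 270 CPM, and Kupffer cell markers (3 of 3) in liver from 72.5 to 27 and from 63.7 to 38.4 CPM, and their part in the change of *Cebpd* was not tested.

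*Cebpb*, on chromosome 2 (167688915 to 167690418, plus strand, 1 exon), encodes C/EBP beta, which acts with C/EBP delta at the start of fat cell formation and drives glucose production genes in liver. In gastrocnemius it was at 114 CPM in the GRf/f vehicle library, 49.6 with CORT, 65.9 in the GRmKO vehicle library and 71.2 with CORT. The GRf/f vehicle library stood above the other 3. In liver the corresponding levels were 167, 42.5, 160 and 87.7 CPM, with both CORT libraries below both vehicle libraries, and in gonadal WAT they were 83.1, 78.8, 76.5 and 96 CPM. *Cebpb* fell with CORT in GRf/f mice, with log2 changes of -1.20 in gastrocnemius (-1.32 to -1.10) and -1.96 in liver (-2.08 to -1.86), and its change in gonadal WAT was -0.07 (-0.18 to 0.02). In GRmKO mice the changes were 0.11 in gastrocnemius (0.00 to 0.22), -0.86 in liver (-0.95 to -0.78) and 0.32 in gonadal WAT (0.23 to 0.42), none of them past 2-fold. The CORT change in GRmKO minus that in GRf/f was 0.40 (0.26 to 0.54) in gonadal WAT, 1.10 (0.97 to 1.24) in liver and 1.31 (1.16 to 1.46) in gastrocnemius. Macrophages also make C/EBP beta, and their summed markers in liver moved from 87.3 to 31.8 CPM in GRf/f and from 69.1 to 43.4 in GRmKO (7 of 7 above 0). In gonadal WAT the same markers moved the other way, from 289 to 735 and from 361 to 632 CPM (*Itgam* at 0 in the GRf/f vehicle library), and their part in the level of *Cebpb* was not tested.

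*Ddit3*, on chromosome 10 (127290774 to 127296288, plus strand, 4 exons), encodes CHOP, the stress-induced partner of the C/EBP proteins. In liver it was at 2.66 CPM in the GRf/f vehicle library, 10.7 with CORT, 6.65 in the GRmKO vehicle library and 5.17 with CORT. In gonadal WAT the corresponding levels were 12, 28.4, 18.9 and 20.7 CPM, and in gastrocnemius 9.06, 9.73, 14.2 and 12.7 CPM. In liver and gonadal WAT the GRf/f libraries were the lowest (vehicle) and the highest (CORT), with both GRmKO libraries between them. *Ddit3* rose with CORT in GRf/f mice by 1.82 on the log2 scale in liver (1.56 to 2.44) and by 1.20 in gonadal WAT (1.02 to 1.46), and its change in gastrocnemius was 0.10 (-0.20 to 0.41). In GRmKO mice the changes were -0.33 in liver (-0.75 to 0.00), 0.12 in gonadal WAT (-0.08 to 0.33) and -0.16 in gastrocnemius (-0.42 to 0.08). The change in GRmKO minus that in GRf/f was -2.15 in liver (-2.71 to -1.60), the largest such difference among the members, -1.08 in gonadal WAT (-1.38 to -0.79) and -0.26 in gastrocnemius (-0.64 to 0.12). A second annotated gene model of the same name overlaps this one, so that reads may have been split between them.

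*Cebpa*, on chromosome 7 (35119293 to 35121928, plus strand, 1 exon), encodes C/EBP alpha of mature fat cells and hepatocytes. In gonadal WAT it was at 1111 CPM in the GRf/f vehicle library, 946 with CORT, 1015 in the GRmKO vehicle library and 955 with CORT, and in liver at 391, 320, 384 and 356 CPM. No change in either tissue was larger than -0.29 on the log2 scale (GRf/f liver, -0.34 to -0.24). In gastrocnemius it was at 13.7, 27.7, 19.7 and 26.8 CPM in the same order, so that both CORT libraries lay above both vehicle libraries. The CORT change there was 0.99 in GRf/f (0.80 to 1.23), just under 2-fold, and 0.44 in GRmKO (0.26 to 0.64). With TMM scaling (1.07), median-of-ratios scaling (1.09) or 0.1 CPM added in place of 0.5 (1.01), the change in GRf/f passed 2-fold. Summed adipocyte markers (*Adipoq*, *Plin1*, *Cidec*, *Fabp4*, *Lep*) in gastrocnemius were at 179, 567, 284 and 426 CPM in the same libraries (*Cidec* at 0 in the GRmKO vehicle library), in the same order of size as *Cebpa*. As a share of the level in the gonadal WAT library of the same group, *Cebpa* in gastrocnemius was at 1.23%, 2.93%, 1.94% and 2.81% and the summed adipocyte markers at 0.86%, 2.49%, 1.22% and 1.95%. The sum was carried by *Fabp4* (136 of 179 CPM in the GRf/f vehicle library), and single markers stood apart from *Cebpa*, with *Adipoq* at 0.386%, 3.12%, 0.388% and 1.82% and *Plin1* at 0.564%, 2.73%, 0.616% and 1.83%. Hepatocyte markers in gastrocnemius summed to 6.72, 9.01, 78.3 and 247 CPM, at most 0.182% of their sum in liver. The part of either in the level of *Cebpa* was not tested.

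*Cebpg*, also on chromosome 7 (35046422 to 35056573, minus strand, 2 exons), encodes C/EBP gamma, the broadly made partner that restrains the others. It was at 29.7 to 41.2 CPM in liver, 37.5 to 50.7 in gastrocnemius and 79.7 to 111 in gonadal WAT. None of its 12 changes passed 2-fold, and the largest was in GRmKO gonadal WAT with CORT, from 111 to 79.7 CPM (-0.47, -0.57 to -0.38).

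*Pparg*, on chromosome 6 (115360951 to 115490399, plus strand), encodes the nuclear receptor PPAR gamma, without which fat cells do not form. In gonadal WAT it was at 140 CPM in the GRf/f vehicle library, 139 with CORT, 152 in the GRmKO vehicle library and 162 with CORT, and the CORT changes were -0.01 (-0.09 to 0.07) and 0.09 (0.02 to 0.17) on the log2 scale. In gastrocnemius it was at 3.64 to 4.51 CPM and in liver at 2.59 to 4.16 CPM, and no change passed 2-fold. The entry kept by the authors for liver was another transcript than for the other tissues, and neither was the transcript from the downstream, fat-specific start, so the level in fat is not the sum of the gene if entries are single transcripts.

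*Ebf1*, on chromosome 11 (44617317 to 45008091, plus strand, 16 exons), encodes a factor of B cells and fat cell precursors. In gonadal WAT it was at 193 and 196 CPM in GRf/f and at 206 and 207 in GRmKO (vehicle, then CORT), and in both genotypes the CORT change was within 0.02 of 0 on the log2 scale. B cell markers in the same libraries (5 of 5 above 0) summed to 11.6, 1.66, 17 and 4.26 CPM in the same order, and their part in the level of *Ebf1* was not tested. In gastrocnemius it was at 23.5, 24.7, 34.3 and 24.4 CPM, with the GRmKO vehicle library above the other 3. In liver it was at 0.335 and 0.293 CPM in GRf/f and listed at 0 in both GRmKO libraries, where the counting intervals reach up to 0.186 and 0.185 CPM.

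*Zfp423*, on chromosome 8 (87661810 to 87959595, minus strand), encodes a factor that commits precursors to the fat lineage. In gonadal WAT it was at 31.8 CPM in the GRf/f vehicle library, 57.4 with CORT, 36.5 in the GRmKO vehicle library and 34.2 with CORT, and in gastrocnemius at 6.95, 11, 7.59 and 6.26 CPM. In both tissues the GRf/f CORT library stood above the other 3, without reaching 2-fold. The CORT change was 0.84 in GRf/f gonadal WAT (0.71 to 0.99) and 0.62 in GRf/f gastrocnemius (0.34 to 0.98), and it was -0.09 (-0.25 to 0.06) and -0.26 (-0.63 to 0.07) in GRmKO. The change in GRmKO minus that in GRf/f was -0.93 (-1.14 to -0.73) in gonadal WAT and -0.88 (-1.34 to -0.42) in gastrocnemius. Of the stroma markers, in gonadal WAT *Pdgfra* (41, 49, 43 and 40.2 CPM) and *Col1a1* (355, 603, 313 and 547 CPM) were also highest in the GRf/f CORT library, while the other 6 and the sum given above were not. In gastrocnemius the sum was lowest in that library, and the part of stroma in the level of *Zfp423* was not tested. In liver *Zfp423* was at 0.478 and 0.486 CPM in the vehicle libraries and listed at 0 in both CORT libraries, where the counting intervals reach up to 0.188 and 0.185 CPM. The retained transcript there differed from that of the other tissues.

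Between genotypes, 1 member passed 2-fold under each treatment, both in liver. Under vehicle no member passed 2-fold in gastrocnemius (0 of 8, background 7.77%) or gonadal WAT (0 of 8, background 2.22%), and *Ddit3* alone did in liver (1 of 6, background 2.3%), where it was higher in GRmKO by 1.18 on the log2 scale (0.86 to 1.79). *Ddit3* was also at 157% of the GRf/f vehicle level in gastrocnemius and in gonadal WAT, at 0.62 (0.38 to 0.93) and 0.63 (0.42 to 0.89). *Cebpb* in gastrocnemius was at 57.6% of the GRf/f level, -0.79 on the log2 scale (-0.90 to -0.70). Under CORT no member passed in gastrocnemius (0 of 8, background 9.71%) or gonadal WAT (0 of 8, background 2.62%), and in liver *Cebpb* did (1 of 6, background 4.72%), higher in GRmKO by 1.04 (0.93 to 1.16). With TMM or median-of-ratios scaling that difference was 0.96, under 2-fold, and *Ddit3* in liver, at -0.98 (-1.40 to -0.71), passed 2-fold at -1.05. *Cebpd* under CORT was higher in GRmKO in all 3 tissues, by 0.70 in gastrocnemius (0.54 to 0.88), 0.59 in liver (0.22 to 1.14) and 0.82 in gonadal WAT (0.66 to 1.02), short of 2-fold in each. The median size of the members' difference was 0.31 under vehicle and 0.40 under CORT in gastrocnemius (all genes 0.31 and 0.34), 0.19 and 0.37 in liver (all genes 0.18 and 0.25) and 0.12 and 0.25 in gonadal WAT (all genes 0.17 and 0.21).

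**Figure D3:**
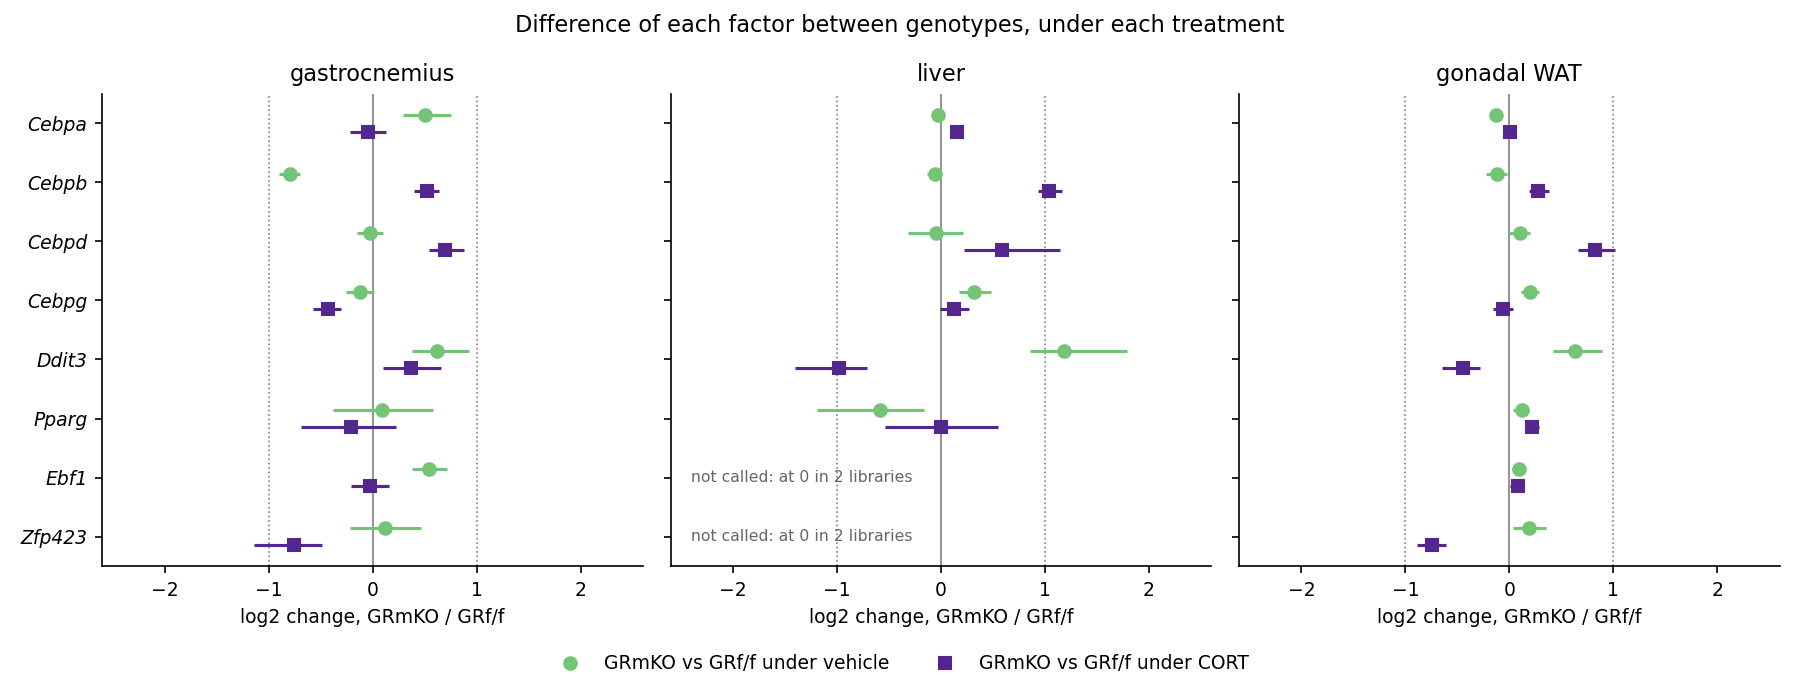
Log2 difference between genotypes (GRmKO over GRf/f, horizontal axis) of each factor under vehicle (circles) and under CORT (squares), with 95% counting intervals and dotted lines at 2-fold. The squares of *Cebpd* lie right of 0 in all 3 tissues, at 0.59 to 0.82, while its circles lie at -0.05 to 0.10.

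The CORT change differed between genotypes by at least 2-fold, as a difference of log2 changes with no test, for 1 of 8 members in gastrocnemius (*Cebpb*, background 10.4%), 2 of 6 in liver (*Cebpb* and *Ddit3*, background 9.89%) and 1 of 8 in gonadal WAT (*Ddit3*, background 7.15%). In gastrocnemius the difference for *Cebpb* came from both the vehicle and the CORT libraries, and more from the vehicle ones. There GRmKO stood at -0.79 (-0.90 to -0.70) against GRf/f under vehicle and at 0.52 (0.40 to 0.64) under CORT. In liver the vehicle libraries held the same *Cebpb* level within 0.06 on the log2 scale.

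The make-up of the C/EBP family, as shares of the summed CPM per kilobase of *Cebpa*, *Cebpb*, *Cebpd*, *Cebpg* and *Ddit3*, shifted with CORT in GRf/f liver and gastrocnemius. In liver the sum was 272 CPM per kilobase in the GRf/f vehicle library, 171 with CORT, 271 in the GRmKO vehicle library and 210 with CORT. Over the same libraries *Cebpb* made up 40.7%, 16.5%, 39.2% and 27.8% and *Cebpa* 54.7%, 71.3%, 54% and 64.6%, so that the count ratio of *Cebpa* to *Cebpb* was 2.34, 7.52, 2.41 and 4.06. *Cebpg* and *Ddit3*, which can restrain the others, together made up 3.42%, 11.7%, 5.68% and 6.94%. In gastrocnemius *Cebpb* and *Cebpd* together made up 78.1% and 54.9% in GRf/f and 63.9% and 64% in GRmKO (vehicle, then CORT). In gonadal WAT *Cebpa* made up 76.2% to 79.5% in the 4 libraries, and the ratio of *Cebpb* to *Cebpd* counts went from 1.12 to 3.86 in GRf/f and from 0.964 to 2.63 in GRmKO with CORT.

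**Figure D4:**
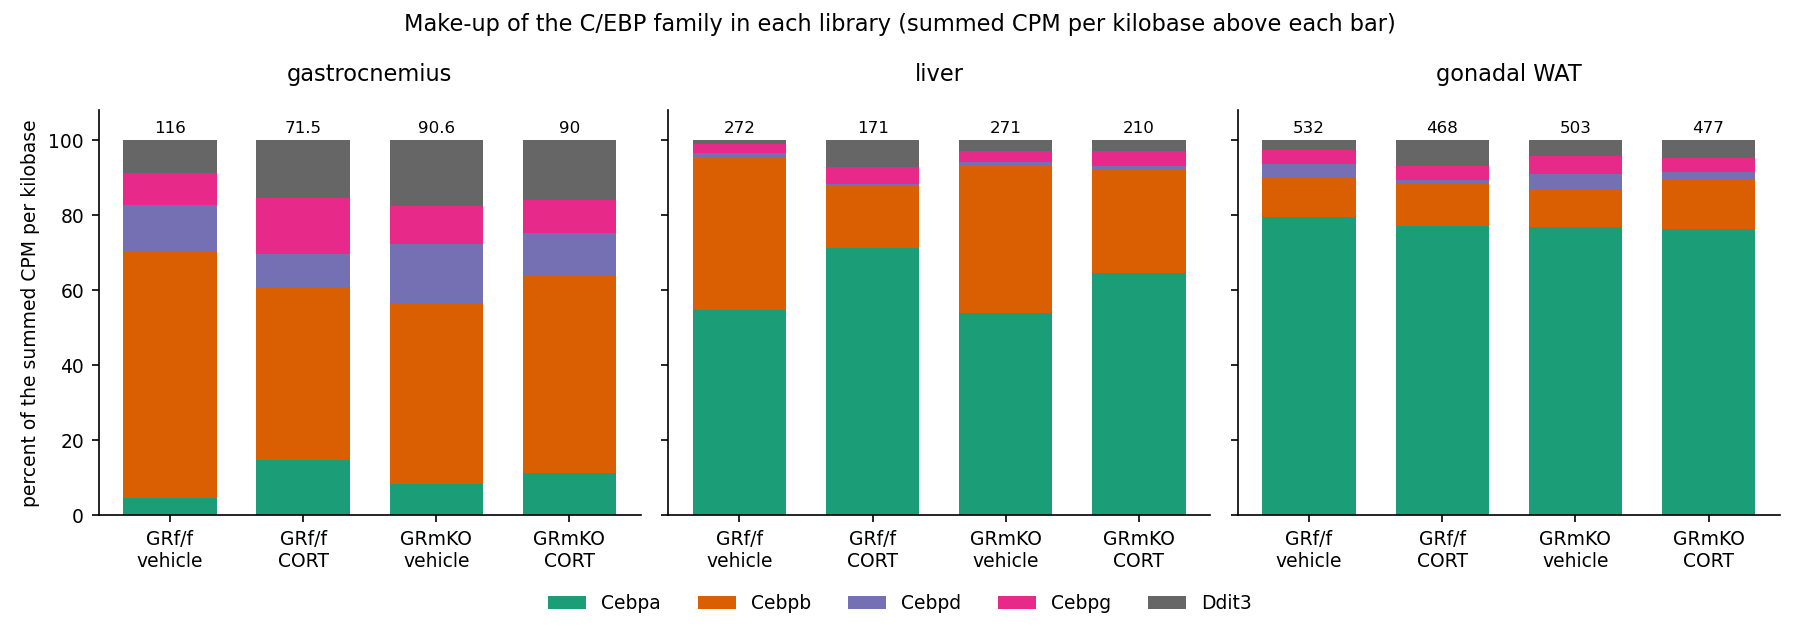
Share of each of 5 C/EBP family genes in their summed CPM per kilobase (vertical axis, percent) in each library, with the sum above each bar. The *Cebpb* share is lowest of the liver bars in the GRf/f CORT library, at 16.5%, and *Cebpa* makes up at least 76.2% of every gonadal WAT bar.

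Genes around these factors were counted on 6 lists. Of 21 adipocyte genes that PPAR gamma and C/EBP alpha drive, 20 were tested in gastrocnemius, and with CORT 10 rose and 1 fell in GRf/f (median 0.97 on the log2 scale, all genes -0.08) and 5 rose in GRmKO (median 0.42, all genes -0.10), where 7.97% and 6.53% of all genes passed 2-fold. *Lep*, which encodes the fat cell hormone leptin, rose from 2.01 to 93.6 CPM in GRf/f and from 3.35 to 31.4 in GRmKO gastrocnemius, and *Scd1*, a fatty acid desaturase gene, rose from 181 to 967 and from 229 to 977 CPM. All 5 adipocyte markers named above are on this list, so the counts are not separate from them. In gonadal WAT, where neither *Pparg* nor *Cebpa* reached 2-fold, 1 of 21 rose and 2 fell in each genotype (medians -0.30 and -0.16, all genes -0.07 and -0.12), against 13.6% and 9.1% of all genes. There *Lep* rose from 722 to 5587 CPM in GRf/f and from 1290 to 3196 in GRmKO, and *Cfd*, which encodes adipsin, fell from 5933 to 383 and from 5552 to 620 CPM. In liver 5 of 16 rose and 3 fell in GRf/f (median 0.03, all genes 0.00) and 1 rose and 2 fell in GRmKO (median -0.06, all genes 0.05), against 11.6% and 5.61% of all genes. Among them *Cd36*, a fatty acid transporter gene, rose from 17.9 to 74.7 and from 19.8 to 46.5 CPM.

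Of 14 other regulators that promote fat cell formation, 1 rose and 3 fell with CORT in GRf/f gonadal WAT (median -0.40) and 1 rose and 2 fell in GRmKO (median -0.43), where 13.6% and 9.1% of all genes passed 2-fold and their medians were -0.07 and -0.12. *Srebf1*, which encodes the lipid synthesis factor SREBP1, fell from 219 to 52.2 CPM in GRf/f and from 269 to 87.4 in GRmKO. In gastrocnemius 3 of 14 fell in GRf/f (median -0.23) and 1 rose in GRmKO (median 0.03), against 7.97% and 6.53% of all genes (medians -0.08 and -0.10). *Zfp467* fell from 9.2 to 3.27 CPM in the first and rose from 2.39 to 13.1 in the second. In liver 1 of 11 fell in GRf/f (median -0.70) and none passed in GRmKO (median -0.14), against 11.6% and 5.61% of all genes (medians 0.00 and 0.05). Of 14 regulators that restrain fat cell formation, 3 rose and 5 fell in GRf/f gonadal WAT (median -0.75) and 2 rose and 2 fell in GRmKO (median -0.30). *Gata2*, a brake on *Pparg* in precursors, fell from 11.8 to 2.02 CPM in GRf/f gonadal WAT, and *Ccn5*, a secreted inhibitor of commitment, rose from 6.96 to 27.8 CPM in GRf/f and from 4.46 to 20.2 in GRmKO. In gastrocnemius 2 rose and 2 fell in GRf/f (median 0.07) and 2 fell in GRmKO (median -0.18), and in liver 1 of 9 rose and 3 fell in GRf/f (median 0.09) and none passed in GRmKO (median 0.27). The liver gene that rose was *Sox9*, from 2.01 to 17 CPM.

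Genes of the integrated stress response, the pathway that induces *Ddit3*, and other genes of endoplasmic reticulum stress were counted on 1 list and moved in both directions. In GRf/f liver, with *Ddit3* higher, 3 of 14 rose and 2 fell (median 0.19), and in GRmKO 2 rose and 1 fell (median 0.02), where 11.6% and 5.61% of all genes passed (medians 0.00 and 0.05). *Hspa5*, the main chaperone gene of the endoplasmic reticulum, rose from 412 to 1018 CPM in GRf/f liver and from 278 to 596 CPM in GRf/f gonadal WAT, and *Trib3*, a target of CHOP and ATF4, fell in liver from 8.17 to 2.83 CPM in GRf/f and from 8.38 to 3.89 CPM in GRmKO. In gonadal WAT 2 of 15 rose and 1 fell in each genotype (medians 0.09 and -0.01), against 13.6% and 9.1% of all genes (medians -0.07 and -0.12). In both genotypes *Atf3*, a stress-induced factor gene, rose there, from 7.57 to 18.9 and from 7.24 to 25.6 CPM, and *Chac1*, another ATF4 and CHOP target, fell from 14.9 to 6.78 and from 20.4 to 6.24 CPM. In gastrocnemius, where *Ddit3* stayed within 0.16 of no change, 2 of 15 rose and 1 fell in GRf/f (median 0.30) and 2 rose in GRmKO (median 0.05), against 7.97% and 6.53% of all genes (medians -0.08 and -0.10). *Atf3* rose from 13.4 to 116 CPM and from 7.64 to 36.9 CPM, and *Chac1* fell from 67.3 to 24.1 CPM in GRf/f and rose from 30.6 to 95.3 in GRmKO.

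Acute-phase genes, whose promoters hold known C/EBP beta and delta sites, were counted on a further list, and the shares of all genes past 2-fold, with their medians, were 13.6% (-0.07) in GRf/f and 9.1% (-0.12) in GRmKO gonadal WAT, 11.6% (0.00) and 5.61% (0.05) in liver and 7.97% (-0.08) and 6.53% (-0.10) in gastrocnemius. In gonadal WAT 5 of 7 rose in GRf/f (median 1.07) and 4 in GRmKO (median 1.68), among them *Lcn2*, an iron-scavenging defence protein gene, from 11.1 to 39.9 and from 5.21 to 42.7 CPM, and *Hp*, the haptoglobin gene, from 2209 to 6458 and from 1885 to 7081 CPM. In liver 1 of 9 rose and 3 fell in GRf/f (median 0.17) and 2 rose and 2 fell in GRmKO (median 0.14). There *Lcn2* rose from 4.8 to 196 and from 3.16 to 84.9 CPM while *Saa1*, a serum amyloid A gene whose close copies may share its reads, fell from 82.2 to 6.86 and from 26.2 to 6.29 CPM. In gastrocnemius 3 of 7 rose in each genotype (medians 0.43 and 0.52), and *Lcn2* rose from 1.01 to 69.8 CPM in GRf/f and from 1.14 to 3.74 in GRmKO. Of 9 hepatocyte genes with C/EBP sites, 1 rose and 2 fell in GRf/f liver (median -0.05) and 1 rose in GRmKO (median -0.16). *Pck1*, the gene of a rate-limiting enzyme of glucose production, fell from 2563 to 762 CPM and *Tat*, tyrosine aminotransferase, from 2140 to 773 CPM in GRf/f liver, while *G6pc*, glucose 6-phosphatase, rose by 1.08 on the log2 scale in GRf/f (1.03 to 1.13) and from 184 to 470 CPM in GRmKO. In gonadal WAT 1 of 7 fell in GRf/f (median 0.21) and 2 rose and 1 fell in GRmKO (median 0.64), and in gastrocnemius 1 of 6 rose in GRf/f (median 0.30) and 6 in GRmKO (median 1.66). Summed hepatocyte markers also moved, in gonadal WAT from 54 to 58.8 CPM in GRf/f and from 64.5 to 107 in GRmKO and in gastrocnemius as given above, and their part in these counts was not tested.

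**Figure D5:**
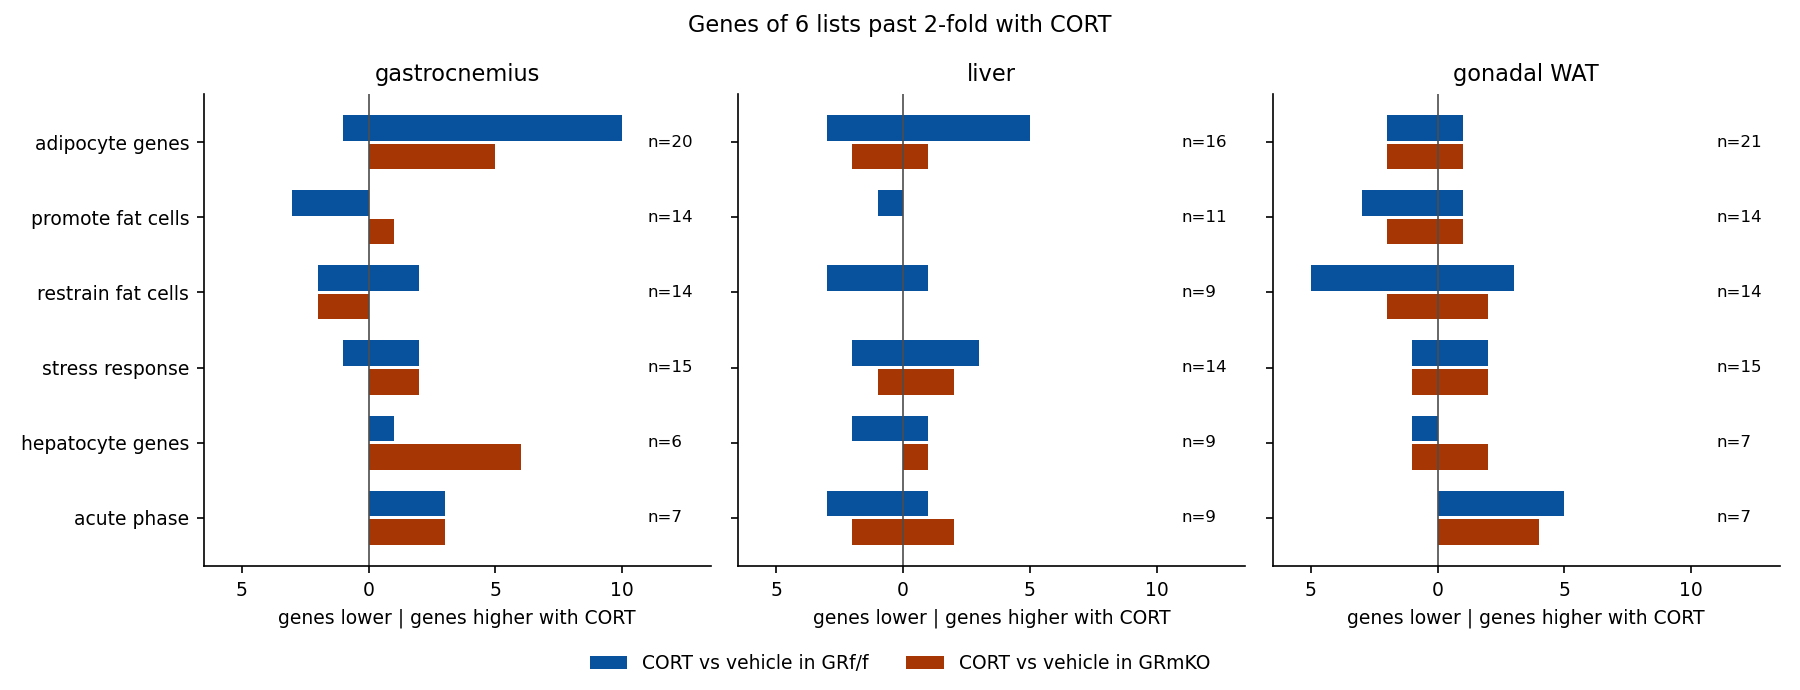
Number of genes past 2-fold with CORT on each of 6 lists (horizontal axis, lower to the left and higher to the right of 0) in GRf/f and GRmKO mice, with the number tested beside each pair of bars. The longest bar is that of adipocyte genes in GRf/f gastrocnemius, with 10 of 20 higher, and the acute-phase bars of gonadal WAT point to the right only, with 5 and 4 of 7.

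Between genotypes under vehicle, the number past 2-fold in gonadal WAT was 0 of 21 adipocyte genes, 0 of 14 promoting regulators, 3 of 14 restraining regulators and 0 of 15 stress response genes, and under CORT it was 0, 0, 1 and 0 of the same. Of 7 hepatocyte genes 0 passed under vehicle and 3 under CORT, and of 7 acute-phase genes 1 and 0, where 2.22% of all genes passed under vehicle and 2.62% under CORT. Under CORT the restraining regulators with a higher level in GRmKO liver, 2 of 9 against 4.72% of all genes, were *Trib1*, from 17.6 in GRf/f to 56.8 CPM in GRmKO, and *Klf2*, from 4.1 to 12.1 CPM. *Trib1* encodes a pseudokinase that marks C/EBP alpha protein for degradation. In gastrocnemius 3 of 14 promoting regulators were higher in GRmKO under CORT (all genes 9.71%), among them *Stat5a*, at 4.44 and 12.3 CPM. The median of that list was -0.18 (all genes 0.02). Of 14 restraining regulators, 3 were higher in GRmKO under CORT and 2 lower (median 0.05), and under vehicle 1 was higher and 1 lower (all genes 7.77%). Among those higher under CORT was *Hes1*, at 10.6 and 29.6 CPM. *Foxo1*, a restraining regulator and a GR target in muscle, was lower in GRmKO under vehicle (87.8 and 37 CPM) and under CORT (147 and 33.4 CPM).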

How the data were processed

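RNA of 3 mice per group had been pooled by the authors and sequenced as paired reads, quantified with Salmon 1.2.1 on protein-coding GENCODE transcripts of mm10 (GRCm38) and imported into R 3.5.0 through tximport, set to scale counts by transcript length. What was deposited are estimated counts (expected counts), 1 entry per gene symbol under the identifier of a single transcript. Of entries sharing a symbol, the authors retained that with the highest total. Whether entries had been summed over genes is not settled by the sources used here, and an entry is read here as its gene's level. The retained transcript differs between tissues for *Pparg* and *Zfp423*, so changes were computed within a tissue.

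CPM, log2 changes (0.5 CPM added) and intervals (Wilson for CPM, exact Clopper-Pearson for ratios, on counts rounded to whole numbers) were computed with scipy 1.17.1, pandas 2.3.3 and numpy 2.4.6 under Python 3.11.15, and plotted by matplotlib 3.10.9. Intervals of ratios omit the 0.5 CPM, and those of differences between genotypes are approximate, from the log of the counts. Interval coverage and the 2-fold calls were checked on simulated counts. Scaling factors for the alternatives came from edgeR 4.0.16 (TMM) in R 4.3.3 and from median-of-ratios. No test across mice was possible with 1 library per group, and the authors' NOISeq, which simulates technical samples, was not used. Transcript lengths, exons and positions came from GENCODE M21 (GRCm38) and promoter windows from RefSeq (GRCm38.p6).

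The 8 members and the gene lists were chosen with earlier results of these data known. All members are named. From each list, the text names some of the up to 3 genes with the largest change past 2-fold and a mean of at least 5 CPM in the tissue. In the lists, *Ero1l* was matched to *Ero1a*, and *Wisp2* to *Ccn5*, which was already listed.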

Additional observations from a re-analysis of the deposited data

Results flagged for a closer look

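*Cebpb* in gastrocnemius fell with CORT in GRf/f mice and changed little in GRmKO mice. It fell by 1.20 on the log2 scale in GRf/f mice (-1.32 to -1.10) and stood 0.11 higher in GRmKO mice (0.00 to 0.22, the lower bound lying just above 0 before rounding), short of 2-fold, a difference of 1.31. In GRmKO mice 72.7% of tested genes changed at least as much. Each counting interval lay on 1 side of 0, but such intervals do not cover the spread between mice, so no opposite direction is read from them. With 1 pooled library per group the difference between genotypes was not tested. The levels behind it were 114 and 49.6 CPM in GRf/f and 65.9 and 71.2 CPM in GRmKO, vehicle then CORT, and summed macrophage markers were at 50.1 and 52.4 CPM in GRf/f and at 137 and 43.7 CPM in GRmKO (*Itgam* at 0 in the GRf/f vehicle and GRmKO CORT libraries).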

How the results depend on the processing

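No paired analysis was possible because the labels carry no replicate numbers and each group holds 1 library. For the same reason no replicate could be left out. Of the 88 changes of tested members, none past 2-fold turned to the opposite direction under TMM scaling, median-of-ratios scaling or another added value. The 2-fold limit itself was crossed by 4 of the 88 with TMM and by 4 with median-of-ratios scaling. It was crossed by 2 with 0.1 CPM added and by 2 with 2 CPM added. Scaling moved the median gene (of those averaging 50 counts or more) by over 0.1 on the log2 scale in GRf/f gastrocnemius with CORT (-0.09, to 0.02 with median-of-ratios), GRmKO gastrocnemius with CORT (-0.08, to 0.07 with TMM) and GRmKO gonadal WAT with CORT (-0.12, to 0.00 with TMM), and with it the share of genes past 2-fold that were higher, from 40.8% to 51.2%, from 23.2% to 35.1% and from 38.2% to 51.2%. In GRmKO gonadal WAT the members past 2-fold went from 1 to 0 with either scaling, as *Cebpd* was at -0.98. With 2 CPM added, the members past 2-fold went from 1 to 0 in GRmKO liver with CORT (*Cebpd* at -0.88) and between genotypes in vehicle-treated liver (*Ddit3* at 0.89). With 0.1 CPM added they went from 1 to 2 between genotypes in CORT-treated liver (*Ddit3* at -1.03). Where the whole counting interval had to lie beyond 2-fold, they went from 1 to 0 in GRmKO liver and GRmKO gonadal WAT with CORT and between genotypes in liver under vehicle and under CORT, while the 2, 3 and 2 members in GRf/f gastrocnemius, liver and gonadal WAT with CORT remained.

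The number of all genes past 2-fold, taken here in the order of CORT in GRf/f, CORT in GRmKO, genotype under vehicle and genotype under CORT, was 1080, 885, 1052 and 1315 in gastrocnemius, 1451, 701, 287 and 589 in liver and 1928, 1294, 316 and 372 in gonadal WAT. With 0.1 CPM added it was 1672, 1445, 1656 and 2010 in gastrocnemius, 1184, 670 and 1152 in liver (from the second on) and 1944, 715 and 815 in gonadal WAT (from the second on). With 2 CPM it was 571, 394, 533 and 678, then 814, 368, 114 and 245, then 1192, 689, 141 and 140. With the interval beyond 2-fold it was 623, 459, 572 and 761, then 942, 415, 140 and 295, then 1266, 744, 158 and 171. With no filter on low values it was 1401 and 1621 for the middle comparisons in gastrocnemius, 1143, 657 and 982 in liver (from the second on) and 708 and 767 for the genotypes in gonadal WAT. With a mean of at least 1 CPM required, the genotype count in vehicle-treated liver was 461. The settings that take in or weigh low genes gave more calls by construction. At this depth *Ebf1* and *Zfp423* in liver, at or under 0.486 CPM, could not be compared, and *Pparg* in gastrocnemius and liver had wide intervals, such as -1.19 to -0.16 between genotypes in vehicle-treated liver.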

Other observations

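*Cebpe*, the family member of granulocyte precursors, was counted in liver at 10.3 CPM in the GRf/f vehicle library, 6.69 with CORT, 7.87 in the GRmKO vehicle library and 8.58 with CORT. In the other tissues it was at 0 to 0.401 CPM, near or under the floor.

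For each member, the genes with the most similar pattern were sought as those with the smallest root mean square difference of log2 levels, each centred on the mean of its tissue, over the libraries of the tissues where the member averaged at least 5 CPM. Among 6133 genes over 12 libraries, *Gimap4* lay closest to *Cebpd* (0.21), *Msmo1* to *Cebpb* (0.267), *Slc16a1* to *Ddit3* (0.259), *Acadl* to *Cebpa* (0.116) and *Ctcf* to *Cebpg* (0.0719). The members' own root mean square deviation over those libraries was 0.675 for *Cebpd*, 0.527 for *Cebpb*, 0.477 for *Ddit3*, 0.245 for *Cebpa* and 0.173 for *Cebpg*. Over 8 libraries of gastrocnemius and gonadal WAT, *Secisbp2l* lay closest to *Zfp423* (0.112, own deviation 0.309) and *Pdia3* to *Ebf1* (0.0383, own deviation 0.155). *Creld2*, an endoplasmic reticulum stress gene, was next in likeness to *Ddit3* (0.267).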
